A study of Homo sapiens with 2 samples.

Results

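A set of 7 genes of the ABC transporter family was followed in HepG2, a human hepatoma cell line, after transfection with an LNA (locked nucleic acid) directed at the noncoding transcript TUC338, called the knockdown, or with a control LNA, called the control. They are ABCA1, ABCA2, ABCB1, ABCB4, ABCB10, ABCC3 and ABCC10, 7 of the 2792 genes in the table. All probe sets annotated to 1 of these symbols alone were used, 191 of the 42575 probe sets with 1 symbol. The median gene and every share of all genes or probe sets below refer to this table alone. It lacks most genes of the marker and pathway lists used below, and the reason was not examined. Both groups consist of cells grown on collagen-coated plates, and each was measured on 1 whole-transcript exon array, whose probe sets each read about 1 exon. Every difference below therefore compares 2 arrays, has no replicate error and carries no test, and the SD given with a gene is the spread over its probe sets.

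ABC transporters are membrane proteins that use ATP to move lipids, bile constituents, drugs and conjugated metabolites across membranes. In hepatocytes some members sit in the canalicular membrane and export into bile, others sit in the basolateral membrane and export toward blood, and others act inside the cell. Subfamily A holds lipid transporters, subfamily B the P-glycoprotein relatives, and subfamily C the multidrug resistance proteins that often carry glutathione, glucuronide or sulfate conjugates. Hepatoma cells are known to keep part of this set, and the export pumps are studied there for drug resistance.

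The knockdown array was the brighter one, with a median intensity of 507 over all probe sets against 422 on the control array. The median gene, by the mean over its probe sets, was 0.28 higher on the knockdown array (log2, 1.22-fold). A difference is therefore given as knockdown minus control in log2 intensity relative to that median gene, unless it is called a deposited value. No probe set was annotated to TUC338, so the knockdown itself could not be checked here. Of 19 hepatocyte and hepatoma markers, 7 were in the table, and their gene means ranged over 8.57 to 13.0 on the knockdown array and 8.71 to 13.0 on the control array (log2 intensity). Their differences had a median of -0.08, with 2 genes above and 5 below the median gene, and none reached 1.5-fold. The brightest were APOA2, TF and APOB, with differences of -0.24 ± 0.17, 0.0017 ± 0.13 and -0.03 ± 0.19 over their probe sets. The farthest apart, given as the ends of the list, were the urea cycle enzyme CPS1 at -0.42 ± 0.32 and fibrinogen FGG at 0.27 ± 0.29. Of 10 markers of stromal, endothelial and immune cells, COL1A1 alone was in the table, with means of 7.89 in knockdown cells and 8.51 in control cells and a difference of -0.90 ± 0.33. Its part in the results below was not tested. In such bulk RNA, fewer cells that express a gene and less RNA per cell cannot be told apart.

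The stretches upstream of 3 genes are shown because these genes had the largest mean differences from the median gene among the 7 described below. Relative to the median gene, ABCA2 and ABCA1 were lower and ABCB1 was higher on the knockdown array. In deposited values ABCA1 was nearly level, at -0.035. Each line is the 250 bases before an annotated start in RefSeq GRCh38.p14, on the minus strand and 5′ to 3′, taken at the more downstream start where the gene has several. ABCA2 is from chr9:137028238-137028487, ABCA1 from chr9:104928156-104928405 and ABCB1 from chr7:87600885-87601134. Capitals mark matches on either strand to 4 motifs, the GC box GGGCGG, the CCAAT box CCAAT, the E-box CACGTG and the TATA motif TATAAA, and overlapping matches are each counted.
ABCA2: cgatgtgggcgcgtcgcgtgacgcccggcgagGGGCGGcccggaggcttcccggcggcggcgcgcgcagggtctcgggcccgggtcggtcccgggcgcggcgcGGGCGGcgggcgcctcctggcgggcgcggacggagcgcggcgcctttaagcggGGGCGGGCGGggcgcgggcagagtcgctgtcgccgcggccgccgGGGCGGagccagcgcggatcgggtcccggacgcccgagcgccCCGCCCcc
ABCA1: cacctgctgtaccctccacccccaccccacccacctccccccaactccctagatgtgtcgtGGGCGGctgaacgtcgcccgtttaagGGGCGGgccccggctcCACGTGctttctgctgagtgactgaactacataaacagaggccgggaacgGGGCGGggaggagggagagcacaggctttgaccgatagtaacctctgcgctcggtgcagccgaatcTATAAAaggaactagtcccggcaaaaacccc
ABCB1: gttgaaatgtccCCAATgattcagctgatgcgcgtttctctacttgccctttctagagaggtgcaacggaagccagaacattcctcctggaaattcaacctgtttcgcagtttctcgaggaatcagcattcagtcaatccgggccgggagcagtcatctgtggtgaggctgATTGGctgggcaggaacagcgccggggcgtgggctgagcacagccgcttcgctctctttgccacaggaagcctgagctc

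The ABCA2 stretch held 6 GC box matches and none of the other motifs, at a GC content of 85.6%. The ABCA1 stretch held 3 GC box matches, 1 E-box and 1 TATA motif at 61.6% GC. The ABCB1 stretch held 2 CCAAT matches, of which the second reads as ATTGG on the strand shown, and no GC box, at 55.6% GC. Among 35116 promoter stretches of the same length, 42.6% held a GC box, 32.0% a CCAAT box, 6.34% an E-box and 10.7% a TATA motif. The second annotated starts of ABCA2 and ABCB1 had no match to any of the 4. ABCB10 and ABCC10 were also matched, which makes 5 of the 7 genes, while ABCB4 and ABCC3 were not. ABCB10 had 4 GC box matches. ABCC10 had 3 GC box matches at its more downstream start, and 1 E-box and 1 TATA motif at its other start. The matches describe the letters of these windows and were not related to the differences by any test.

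Among the 7 transporters, ABCA2 was the lowest on the knockdown array relative to the median gene and ABCB1 the highest. One gene mean, that of ABCA2, was at least 1.5-fold lower, and none was at least 1.5-fold higher. Over all 2792 genes, 3.9% of gene means were that much lower and 2.26% that much higher. In numbers of genes these are 109 lower and 63 higher, a split that turned to 27 lower and 363 higher in deposited values. The median of the 7 gene means was -0.13, with 3 genes above and 4 below the median gene. Of the 191 probe sets, 122 (63.9%) lay below the median gene and 69 (36.1%) above it, against 52.1% and 47.9% of all probe sets. Of the same 191, 21 were at least 1.5-fold lower and 7 at least 1.5-fold higher. These are 11.0% and 3.66% of them, against a background of 8.19% and 6.15% of all probe sets. ABCA2 alone held 12 of the 21, and without it 9 of 172 were lower, or 5.23%. In deposited values the split turned to 9 lower and 27 higher, and 126 of the 191 were above 0. The matching shares of all probe sets are not given, but only 17% of all gene means were below 0 in deposited values. At 2-fold relative to the median gene, 6 probe sets, 4 of them of ABCA2, were lower and none was higher, where 1.13% and 0.707% of all probe sets were.

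**Figure D1:**
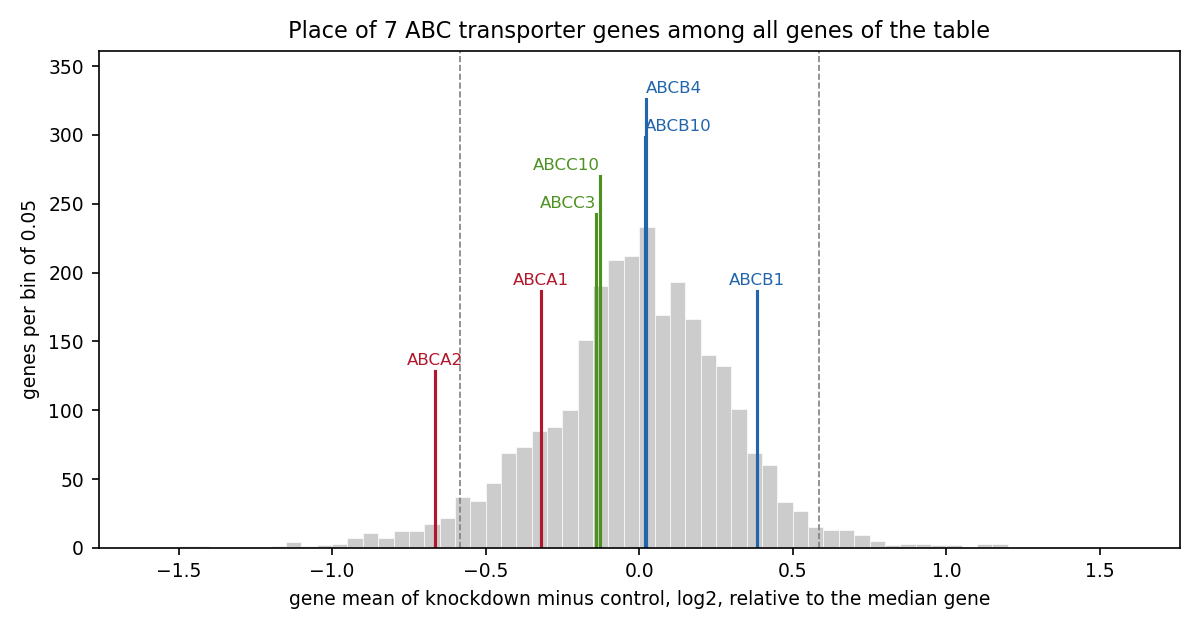
The histogram counts the 2792 genes by their mean difference, knockdown minus control, in log2 relative to the median gene, with dashed lines at 1.5-fold and a coloured line for each transporter (red subfamily A, blue B, green C). ABCA2 at -0.67 lies past the lower dashed line, ABCB1 at 0.38 and ABCA1 at -0.32 lie to the sides of the peak, and the other 4 lie within it.

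In subfamily A both measured genes were lower than the median gene. ABCA2, a transporter of endosomal and lysosomal membranes linked to intracellular sterol and sphingolipid handling, had a mean log2 intensity of 7.71 in knockdown cells and 8.09 in control cells. The deposited difference was -0.38, or 76.7% of the control level. Relative to the median gene it was -0.67 ± 0.39 over 19 probe sets, or 1.59-fold lower, and 73 of the 2792 genes had a lower mean. All 19 probe sets lay below the median gene, which was the case for 6.65% of the 1804 genes with 10 or more probe sets. In deposited values 15 of the 19 were lower on the knockdown array.

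The probe sets of ABCA2 were far from uniform. The lowest had an intensity of 180 in knockdown cells and 378 in control cells, a difference of -1.35. Its brightest probe set read 414 in knockdown cells and 624 in control cells, a difference of -0.87. At the other end, 1 probe set with 172 in knockdown cells and 142 in control cells lay at -0.0082, next to the median gene. Of the 19, 12 were at least 1.5-fold lower and 4 at least 2-fold lower. In order of probe set number, the 4 at least 2-fold lower stood at places 2, 5, 10 and 11. Places 15 to 18 held smaller differences, from -0.47 to -0.0082, and these probe sets ranked 16 to 19 in brightness. Place 19 stood at -0.81. These groupings were made after the values were seen. Only 1 of the 19 probe sets reached the median intensity of all probe sets with 1 symbol.

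ABCA1 loads cholesterol and phospholipid onto lipid-poor apolipoprotein A-I, the first step of HDL formation, and is a classic target of the liver X receptors. Its mean log2 intensity was 9.70 in knockdown cells and 9.74 in control cells, so in deposited values the gene stood at 97.6% of the control level. Relative to the median gene it was lower by a smaller amount than ABCA2 but more evenly, at -0.32 ± 0.22 over 58 probe sets. Of the 2792 genes, 415 had a lower mean than ABCA1. A total of 54 of the 58 lay below the median gene, and 14.4% of genes with 10 or more probe sets had at least 90% of them below it. In deposited values 32 of the 58 were lower and 26 higher on the knockdown array.

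The brightest ABCA1 probe set had an intensity of 2701 in knockdown cells and 2735 in control cells, a difference of -0.30 relative to the median gene. The largest departure was a probe set with 1325 in knockdown cells and 2053 in control cells, at -0.92. A total of 4 probe sets were at least 1.5-fold lower and none was that much higher. The highest lay at 0.25, with 404 in knockdown cells and 279 in control cells. The central 50% of the ABCA1 probe sets lay between -0.46 and -0.18, so most of them shared the lower value relative to the median gene.

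**Figure D2:**
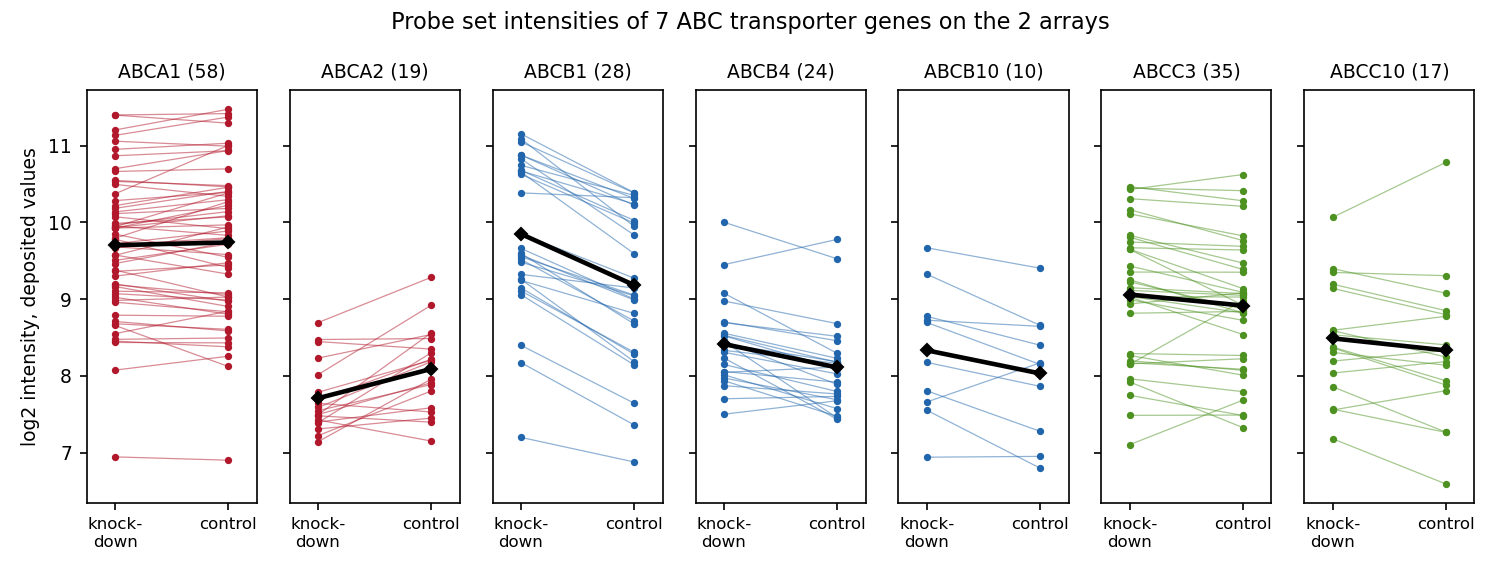
Each panel shows the log2 intensity of every probe set of 1 gene (number in brackets) in knockdown cells, left, and in control cells, right, in deposited values, with thin lines joining a probe set and black diamonds for the gene mean. Most ABCB1 lines run down to the control and most ABCA2 lines run up to it, while the ABCA1 mean is nearly level at 9.70 and 9.74.

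In subfamily B, ABCB1 was above the median gene while ABCB4 and ABCB10 lay next to it. ABCB1 encodes P-glycoprotein, the canalicular pump that exports hydrophobic drugs. It had a mean log2 intensity of 9.85 in knockdown cells and 9.18 in control cells. All 28 probe sets were higher on the knockdown array in deposited values, with a mean of 0.67, or 159% of control. On that brighter array, only 17% of the 2792 gene means were below 0 in deposited values. Relative to the median gene the ABCB1 difference was 0.38 ± 0.27, or 1.30-fold, and 216 of the 2792 genes had a higher mean. Above the median gene lay 26 of the 28 probe sets, and 14.1% of genes with 10 or more probe sets had at least 90% above it. The 1.5-fold size was reached by 6 probe sets and by the gene mean in deposited values only.

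The highest ABCB1 probe set had an intensity of 2179 in knockdown cells and 987 in control cells, at 0.86. Its brightest read 2278 in knockdown cells and 1339 in control cells, at 0.48. The 2 probe sets below the median gene had the lowest numbers of the 28. The first of them read 641 in knockdown cells and 566 in control cells, at -0.10. The second read 1337 in knockdown cells and 1280 in control cells, at -0.22. The other 26 ranged over 0.037 to 0.86, with a mean of 0.43 ± 0.22, a grouping made after the values were seen. Probe set numbers ran in chromosome order for 98.8% of 2327 neighbouring gene pairs on a strand in RefSeq. The exon of each probe set was not analysed here.

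ABCB4 is the canalicular floppase that delivers phosphatidylcholine to bile, and it is a close paralog of ABCB1 that lies near it on chromosome 7. Its mean log2 intensity was 8.42 in knockdown cells and 8.11 in control cells. Relative to the median gene it lay at 0.021 ± 0.30 over 24 probe sets, with 13 above and 11 below. Its brightest probe set read 1026 in knockdown cells and 737 in control cells, at 0.19. The next in brightness read 699 in knockdown cells and 878 in control cells, at -0.61, so the leading probe sets pointed in opposite directions. The highest, at 0.71, had 350 in knockdown cells and 175 in control cells. Whether probes of ABCB1 and ABCB4 bind each other's transcripts was not tested.

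ABCB10 is a transporter of the mitochondrial inner membrane that was linked to haem synthesis in mouse erythroid cells. Its mean log2 intensity was 8.33 in knockdown cells and 8.03 in control cells. The difference relative to the median gene was 0.017 ± 0.37 over 10 probe sets, 6 above and 4 below. A single probe set, with 202 in knockdown cells and 288 in control cells, stood at -0.79. The mean of the other 9, a grouping made after the values were seen, was 0.11 ± 0.26. The brightest ABCB10 probe set, with 814 in knockdown cells and 677 in control cells, lay at -0.018.

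**Figure D3:**
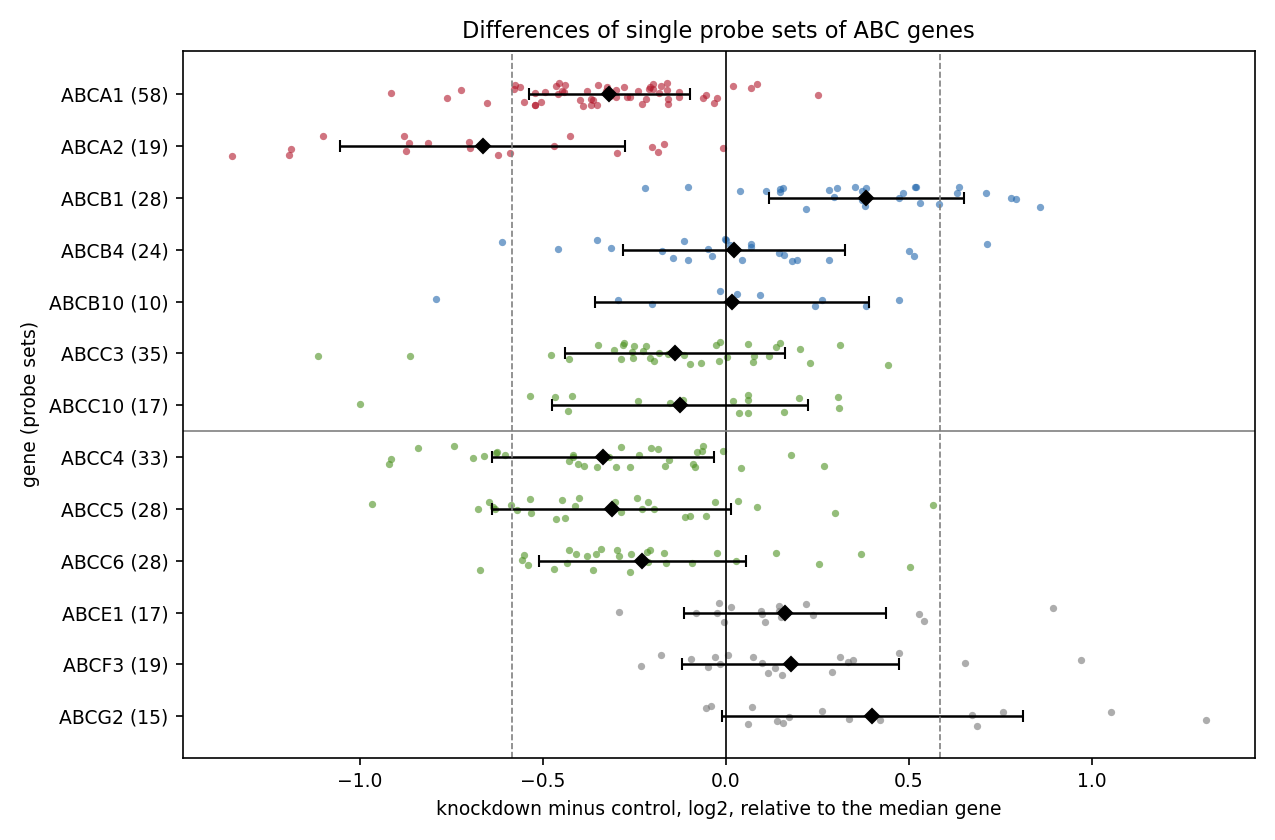
Dots are single probe sets of the 7 transporters (upper block) and of the 6 other ABC genes in the table (lower block), placed by knockdown minus control in log2 relative to the median gene; diamonds and bars are the mean and SD over probe sets and dashed lines mark 1.5-fold. All ABCA2 dots lie left of 0, 54 of 58 ABCA1 dots do, and 26 of 28 ABCB1 dots lie right of it.

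The gene means of ABCC3 and ABCC10, of subfamily C, were near the median gene, with single probe sets far from it. ABCC3, the basolateral pump for glucuronide conjugates and bile salts, had a mean log2 intensity of 9.06 in knockdown cells and 8.92 in control cells. Its difference was -0.14 ± 0.30 over 35 probe sets, with 24 below and 11 above the median gene. In deposited values, where the median gene was itself 0.28 higher, 28 of the 35 were higher on the knockdown array. Relative to the median gene, only 2 probe sets were at least 1.5-fold lower and none was that much higher. One of them read 284 in knockdown cells and 506 in control cells, at -1.11. The other read 138 in knockdown cells and 206 in control cells, at -0.86. The remaining 33 had a mean of -0.09 ± 0.22, a grouping made after the values were seen, so a mean nearer to that of the median gene follows from it.

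ABCC10, a lipophilic anion pump linked to taxane resistance, had a mean log2 intensity of 8.49 in knockdown cells and 8.33 in control cells. The difference was -0.13 ± 0.35 over 17 probe sets, 9 above and 8 below the median gene. It rested in part on the brightest probe set, which read 1072 in knockdown cells and 1762 in control cells, at -1.0. The other 16 ranged over -0.54 to 0.31, with a mean of -0.07 ± 0.28, a grouping made after the values were seen. Across the 17 probe sets the difference and the mean level had a Pearson r of -0.54, a description of probe sets that share the same 2 arrays. This r includes the brightest probe set, and r without it was not computed. By brightness, the probe set ranked 2 lay at -0.24, and those ranked 3, 4 and 5 lay at 0.036, 0.061 and 0.059. The second lowest difference came from a probe set with 188 in knockdown cells and 224 in control cells.

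**Figure D4:**
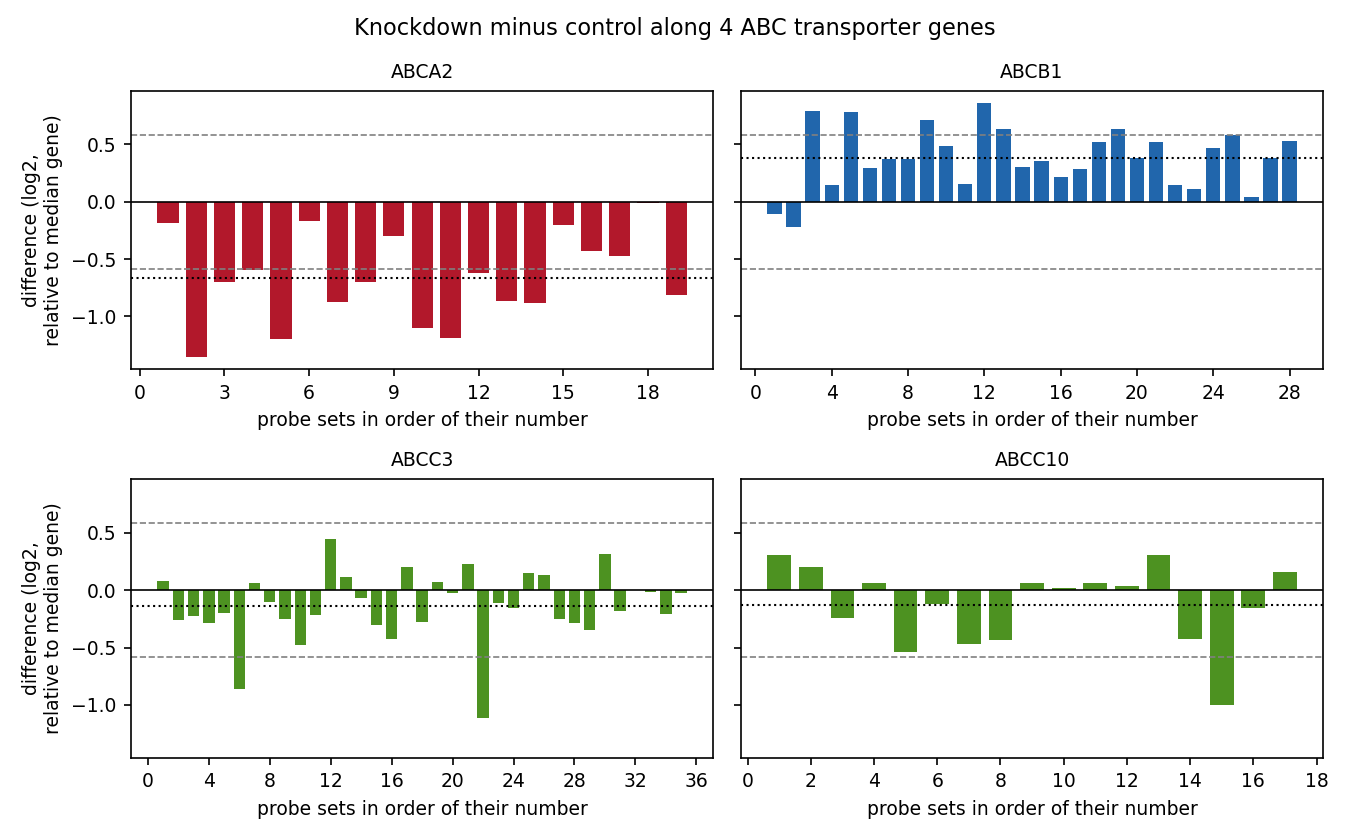
Bars give the difference of each probe set (log2, relative to the median gene) in order of probe set number for ABCA2, ABCB1, ABCC3 and ABCC10, with the gene mean dotted and 1.5-fold dashed. ABCA2 bars point down throughout, the first 2 ABCB1 bars point down and the other 26 up, and ABCC3 and ABCC10 have 2 and 1 bars past the lower dashed line.

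The table held 6 further ABC genes, with 140 probe sets. None of their gene means reached 1.5-fold relative to the median gene, and 3 lay above and 3 below the median gene. The export pump ABCG2 of the apical membrane was highest, with a mean log2 intensity of 8.69 in knockdown cells and 8.01 in control cells. Its difference was 0.40 ± 0.41 over 15 probe sets, 13 of them above the median gene, beside 0.38 for ABCB1. The brightest ABCG2 probe set read 1000 in knockdown cells and 747 in control cells, at 0.14. The highest difference, 1.31, came from its dimmest probe set, with 246 in knockdown cells and 81 in control cells. The ABCG2 mean in deposited values was 0.68, or 161% of control, which is past 1.5-fold, as for ABCB1. The 3 other subfamily C pumps lay below the median gene. They were ABCC4, an exporter of cyclic nucleotides and bile salts (-0.34 ± 0.30, 30 of 33 probe sets below), ABCC5, an exporter of organic anions and nucleotide analogs (-0.31 ± 0.33, 24 of 28), and ABCC6, a hepatic protein whose loss causes pseudoxanthoma elasticum (-0.23 ± 0.28, 23 of 28). In deposited values these 3 means were near 0, at -0.052 for ABCC4, -0.029 for ABCC5 and 0.054 for ABCC6. ABCC4 was also dim, with a mean log2 intensity of 7.66 in knockdown cells and 7.71 in control cells, at percentile 4.23 of all genes. ABCE1, a ribosome recycling factor, and ABCF3, both without membrane-spanning parts, lay at 0.16 ± 0.28 and 0.18 ± 0.30. With ABCC3 and ABCC10, all 5 subfamily C genes in the table had means below the median gene, where 50% of all genes do by definition. The ABCC10 mean rested in part on its brightest probe set, and by the median over its probe sets ABCC10 stood at 0.018. In deposited values ABCC3 (0.14), ABCC10 (0.16) and ABCC6 were above 0, and ABCC4 and ABCC5 were below it. A direction common to the subfamily was therefore not seen under every setting, and no test of the subfamily was possible.

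Genes of the pathways around these transporters were read from lists. For the liver X receptor and sterol list, 9 of 20 genes were in the table and had a median of -0.16. None was at least 1.5-fold higher and 1 was that much lower, fatty acid synthase FASN at -0.87 ± 0.19. The desaturase SCD (-0.32 ± 0.21) and the phospholipid acyltransferase LPCAT3 (-0.42 ± 0.21), both known receptor targets, lay below the median gene, as did SREBF1, another target, at -0.16 ± 0.30 (0.12 in deposited values), which falls outside the rule for named genes. The receptor genes also fall outside that rule and are given for their role, NR1H3 at 0.23 ± 0.38 and NR1H2 at 0.058 ± 0.33. Their partners stood on opposite sides, RXRA at -0.36 ± 0.28 with all of 10 probe sets below the median gene and RXRB at 0.15 ± 0.24 with 6 of 9 above it. Among HDL assembly and sterol handling genes, 7 of 19 were measured with a median of -0.025. One was at least 1.5-fold higher, the cholesterol ester hydrolase NCEH1 at 0.96 ± 0.42, and 1 lower, the lysosomal sterol carrier NPC2 at -0.62 ± 0.20. SNTB1, a syntrophin that binds ABCA1, lay at -0.29 ± 0.34.

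Detoxification genes governed by the receptors PXR and CAR, which also act on ABCB1, had 4 of 16 genes in the table and a median of 0.15. The sulfotransferase SULT2A1 was at least 1.5-fold higher (0.61 ± 0.21, all of 10 probe sets above the median gene) and none was that much lower. The reductase POR lay at 0.041 ± 0.23 and NR1I2, the gene of PXR, at -0.041 ± 0.34. Of the bile formation and uptake list, 4 of 20 were measured with a median of 0.13 and none reached 1.5-fold. The bile acid enzyme CYP27A1 lay at 0.29 ± 0.12, the copper pump ATP7B at -0.036 ± 0.27 and AMACR at -0.12 ± 0.34. ATP8B1, the canalicular phospholipid flippase, falls outside the rule for named genes and is given for its role. It lay at 0.45 ± 0.24, the largest difference of the 4, with all of 26 probe sets above the median gene. Of genes with 10 or more probe sets, 14.1% had at least 90% above it, and the share with all above is not given. ATP8B1 was also dim, at percentile 3.37 of all genes. Its mean log2 intensity was 7.997 in knockdown cells and 7.263 in control cells. The NRF2 list, of a stress pathway that also acts on ABCC3, had 4 of 22 genes with a median of -0.055 and none past 1.5-fold. That median includes KEAP1, the repressor of NRF2 and not a target, which lay at -0.12 ± 0.23 and is outside the rule for named genes. TXNRD1 lay at 0.17 ± 0.19, NQO1 at 0.012 ± 0.12 and TKT at -0.44 ± 0.16. Of 18 mitochondrial haem and iron-sulfur genes, the cysteine desulfurase NFS1 alone was in the table, at -0.07 ± 0.20.

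For each transporter the most similar of 2729 genes outside the family with at least 4 probe sets was found from the distance between gene means over the 2 arrays. These were SAFB2 for ABCA2, NRBP1 for ABCA1, TSG101 for ABCB1, STYX for ABCB4, VEZT for ABCB10, CCNL2 for ABCC3 and SKIC2 for ABCC10, at distances of 0.0078 to 0.033 on the log2 scale. Within a distance of 0.1 lay 5 genes for ABCA2 and 55 for ABCC10, so with 2 arrays many genes share such a pair of values.

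The direction of ABCA1, ABCA2 and ABCB1 was the same under each of 8 other processing choices per gene, whereas ABCB4, ABCB10, ABCC3 and ABCC10 changed sign under some of them. Reading the values as log2 scales every difference by 1 factor and cannot turn a sign. The 1.5-fold size of ABCA2 was lost in deposited values (-0.38) and if the values were read as log2 (-0.46). ABCB1 passed it in deposited values (0.67). ABCC10 stood at -0.92 by its brightest probe set, relative to the brightest probe sets of all genes, and at 0.018 by the median over its probe sets.

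**Figure D5:**
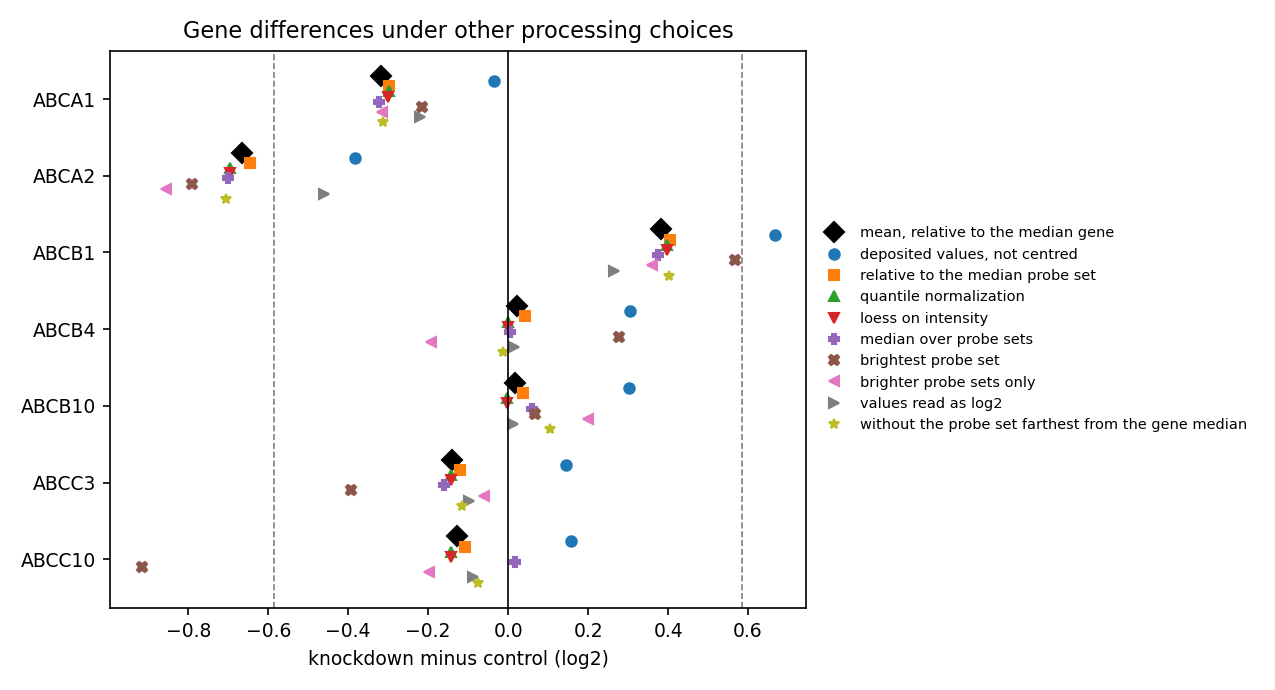
Each symbol is the difference of 1 gene, knockdown minus control in log2, under 1 processing choice, with black diamonds for the mean relative to the median gene and dashed lines at 1.5-fold. The ABCA2 symbols span -0.86 to -0.38, the ABCA1 symbols -0.32 to -0.035 and the ABCB1 symbols 0.27 to 0.67, while those of the other 4 genes lie on both sides of 0.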

How the data were processed

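Expression was measured in HepG2 cells on 1 knockdown and 1 control array, grouped by the transfection label. The authors deposited 1 value for each of 45200 probe sets per array (normalization, software and genome build not given in the sources used here). These deposited values were read as natural log intensities, because their exponentials under 2000 piled up at 1 residue of a 0.5-unit grid (1154 and 1167 values in the fullest bin on the knockdown and control array, means 82.7 and 84.2). They were converted to log2.

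Probe sets with 1 symbol in the platform annotation were kept (42575; 1055 had several symbols, 1570 none), with symbols updated through RefSeq GRCh38.p14. A gene value is the mean over its probe sets, minus that of the median gene. Sizes were counted at 1.5-fold and 2-fold. The arrays number 1 per group, which limits the precision: no test was run. Named list genes are those past 1.5-fold and the 3 brightest of a list; the nearest gene by distance was also named. Members and lists were chosen with earlier results of these data known. The gene summary was run on simulated data, with known shifts and independent noise added to the control values. Recovery of the shifts follows from that setting, which holds no error between arrays or cultures. Alternatives were centring, quantile and loess normalization, the probe set summary, brightness and scale. Computations used Python 3.11.15, pandas 2.3.3, numpy 2.4.6, statsmodels 0.14.6 and matplotlib 3.10.9.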

Additional observations from a re-analysis of the deposited data

How the results depend on the processing

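Of 63 recomputed values of the 7 transporters, 60 moved by less than the SD over the probe sets of the gene. The other 3 were ABCA1 at -0.035 and ABCB1 at 0.67 in deposited values, and ABCC10 at -0.92 by its brightest probe set. Leaving out the centring shifts every gene by the same 0.28, so a gene with a wider spread than that counts as unmoved. ABCC3 and ABCC10 counted so, though their signs turned, to 0.14 and 0.16. The count of 60 is therefore no measure of stability. Without centring on the median gene, 363 genes were at least 1.5-fold higher and 27 lower, and of the transporter probe sets 27 were higher and 9 lower. Values read as log2 gave 16 genes higher and 31 lower, and 1 transporter probe set higher and 11 lower. With brighter probe sets only, 4 of 101 transporter probe sets were higher and 7 lower, and ABCA2 kept 1 probe set. The matching shares of all probe sets under these settings are not given, so the counts are not set against a background. Without ABCA2, counted so after seeing the data, 9 transporter probe sets were lower. Leaving out the probe set farthest from the gene median was chosen after seeing the data and moved ABCC10 to -0.076, ABCB10 to 0.10 and ABCB4 to -0.013. No paired analysis was possible because each group has 1 array. No detection call or background level was used here, so how far dim probe sets, such as those of ABCA2, stood above background is not known. Differences between cultures were not measured.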
